A study of Homo sapiens with 12 samples.

Results

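The p53 target genes examined here are 31 genes that the transcription factor p53 is known to activate directly. The names come from what is known of the pathway, but were chosen with earlier results of these data known. Their counts against all genes are therefore descriptive. These genes are 31 of the 22379 genes listed. All 31 matched a row, 30 passed the filter on low values (an untreated mean of 10 or more) and SPATA18, a p53-induced gene of mitochondrial quality control, was listed at 0 in all 12 libraries. The study sequenced polyadenylated RNA of U2OS, a human osteosarcoma line. Cells had received, by transient transfection, a plasmid with Cas9, a puromycin marker and one guide RNA. The guide was nontargeting (NONT), directed at NUP93, a scaffold protein of the nuclear pore (NUP93-KO), or directed at EXOSC5, a core subunit of the RNA exosome (EXOSC5-KO). Each of the 3 genotypes was given DMSO vehicle (untreated) or 1 μM triptolide for 8 h, with 2 libraries in each of the 6 groups.

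The knockouts were pools of selected cells and not clones. The control guide has no genomic target, whereas both other guides direct Cas9 to cut, and the methods give the cells of these 2 guides a shorter time in culture after transfection than the remaining lines, among which NONT is listed. For p53 target genes, therefore, loss of the protein, DNA cleavage and culture time cannot be told apart in any difference from NONT. The labels do not say whether replicates were separate cultures, so p-values measure the spread between these libraries, which may be technical. Within a library, fewer responding cells and less mRNA per cell cannot be told apart.

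p53 is held at a low level by the ubiquitin ligase MDM2, itself a p53 target, and accumulates when DNA is damaged or ribosome production fails. It binds pairs of a short palindromic half-site in DNA and raises transcription of genes that stop the cell cycle, repair DNA, adjust metabolism or promote cell death. Triptolide binds the XPB subunit of TFIIH and blocks new transcription by RNA polymerase II, so under the drug an mRNA level also depends on how fast the existing molecules decay. Many p53 targets, among them immediate early genes such as BTG2, are known for short-lived mRNAs.

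The half-site was searched in the RefSeq promoters of GRCh38.p14 (250 bases before to 50 after each start), which held 35 windows for 25 of the 31 genes. The full p53 consensus half-site, which reads the same on both strands, was found without mismatch in 5 of 35 windows (14.3%), against 6.63% of all 35116 windows. A pair of half-sites at most 13 bases apart was present in 1 of the 35 (DDB2) and in 10 of all windows (0.03%). All 5 windows with a match are shown. Capitals mark the half-site, each window is 30 bases read 5′ to 3′ on the strand of the gene, and a match describes letters and not binding.
AEN: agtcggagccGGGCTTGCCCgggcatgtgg
DDB2: ggtttGAACAAGCCCtGGGCATGTTTggcg
FDXR: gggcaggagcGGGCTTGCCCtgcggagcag
PLK2: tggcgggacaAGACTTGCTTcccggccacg
SESN1: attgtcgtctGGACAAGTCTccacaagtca
These windows lie at chr15:88621296-88621325 (plus strand, AEN), chr11:47214974-47215003 (plus, DDB2), chr17:74872986-74873015 (minus, FDXR), chr5:58460199-58460228 (minus, PLK2) and chr6:109009018-109009047 (minus, SESN1). Counted from the start site, the half-sites began at −34 in AEN, −11 in FDXR, −132 in PLK2 and −49 in SESN1, and at 6 and 17 in DDB2, downstream of the start. CDKN1A and MDM2 had no match in their windows, which says only that these letters are not in them.

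The deposited values are spike-in normalized, that is, scaled to ERCC transcripts added by cell number, at an approximate depth of 8.56 to 11.92 M reads per library. On this ERCC scale the median gene of the 2 untreated NONT libraries lay at −0.25 and 0.27 log2 from its mean over the untreated libraries, a wider gap than in untreated NUP93-KO (−0.14 and 0.00) or EXOSC5-KO (0.13 and 0.03). Untreated differences are therefore given relative to the median gene, with each library centred on the median over all 13811 genes tested, and the ERCC values are given beside them. Without drug both targeted genes were lower as labelled. EXOSC5 was at 299 and 481 in NONT and 216 and 148 in EXOSC5-KO (log2 difference relative to the median gene −1.15, adjusted p = 0.006, limma), and NUP93 was at 1753 and 2489 in NONT and 1395 and 1432 in NUP93-KO (−0.48, adjusted p = 0.0444, limma). NUP93 also read 1805 and 1618 in EXOSC5-KO (−0.36, adjusted p = 0.054, limma). Under triptolide EXOSC5 stayed apart, at 266 and 208 in NONT and 75.2 and 102 in EXOSC5-KO, whereas NUP93 overlapped between NONT (1007 and 899) and NUP93-KO (801 and 1019) on the ERCC scale. On that scale the median gene itself lay lower in treated NONT (−1.50 and −1.79 log2) than in treated NUP93-KO (−1.03 and −0.96). This overlap therefore does not show equal NUP93 levels relative to the median gene. Mesenchymal genes known from U2OS (VIM, CD44, LGALS1, TIMP1, RUNX2) were all detected, the leukocyte gene PTPRC and the hepatocyte gene ALB stayed at or below 6.7 in every library, and the epithelial genes EPCAM and CDH1 were low but not absent, with untreated means of 29.5 and 44.1.

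In untreated EXOSC5-KO cells, 9 of 30 p53 target mRNAs rose relative to the median gene and none fell. They were CDKN1A, GADD45A, MDM2, XPC, RRM2B, GDF15, TP53I3, EDA2R and SUSD6, with rises of 0.36 to 1.32 on the log2 scale. Among all genes tested, 2.37% rose and 3.11% fell by the same rule (adjusted p below 0.05, limma with Benjamini-Hochberg adjustment over all genes). The median difference of the 30 was 0.42, against 0.00 for all genes, and 29 of 30 lay above 0, with PLK2 the exception at −0.25. Both EXOSC5-KO libraries exceeded both NONT libraries for 27 of the 30, against 26.8% of all genes. The calls rest on few libraries. Most of the 9 calls were lost when any 1 of the 4 NONT and EXOSC5-KO libraries was left out, while all 9 differences kept their sign. Most of the rises called among all genes were lost in the same fits. CDKN1A passed in all 4 of these fits (highest adjusted p 0.00355, limma). On the ERCC scale as deposited none of the 30 passed, against 0.485% of all genes by limma. At an unadjusted p below 0.05 (limma) 13 were higher, as were 833 of all 13811 genes. Again 29 of 30 lay above 0, against 59.54% of all genes. Both knockout libraries exceeded both NONT libraries for 22, against 19.2% of all genes. The mitochondrially encoded mRNAs themselves read higher in EXOSC5-KO for 12 of 13 genes. Scaled to their sum instead, 20 of 30 lay above 0, with a median of 0.12 against −0.30 for all genes. None passed by limma, against 0.55% of all genes. At an unadjusted p below 0.05 (limma) 4 were higher, as were 269 of all 13811 genes. With all libraries scaled to the same total, 9 of 30 rose, against 2.79% of all genes.

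**Figure D1:**
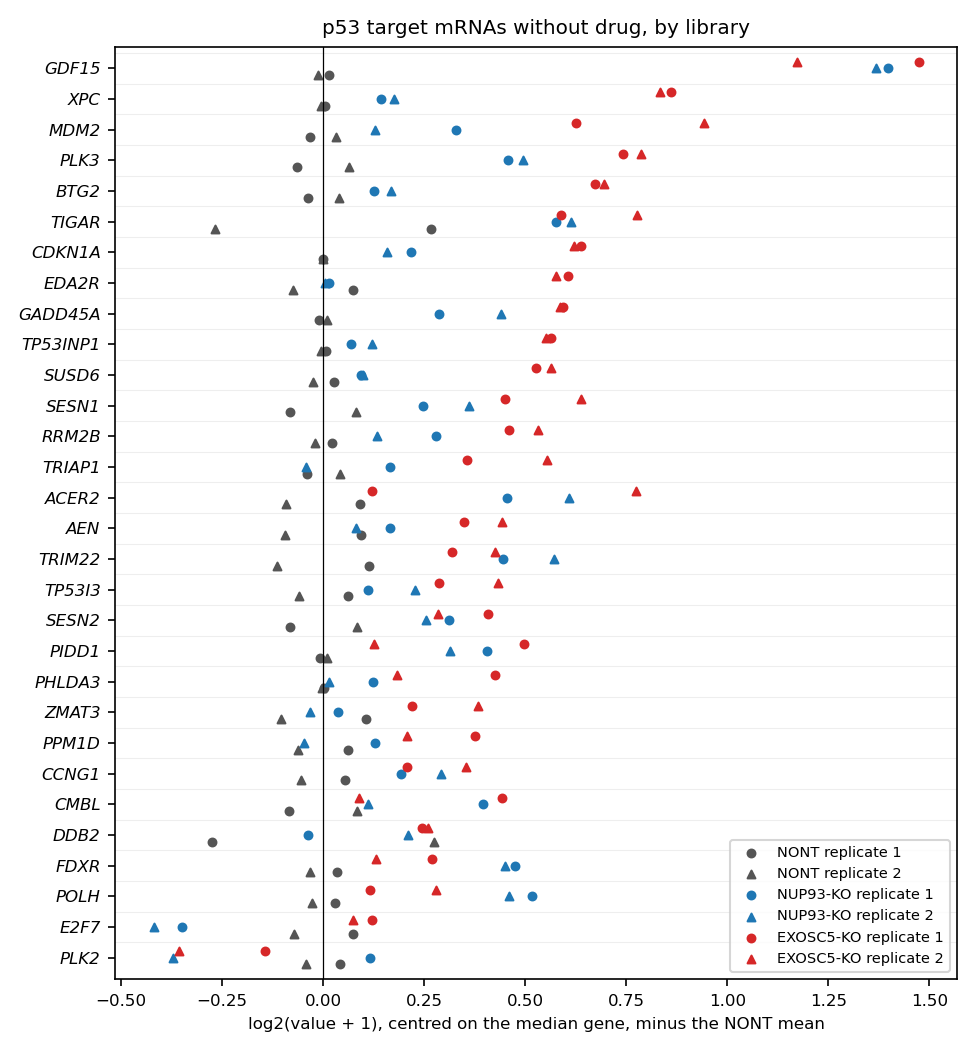
Level of each of the 30 tested p53 target mRNAs in the 6 untreated libraries, as log2(value + 1) centred on the median gene of its library, minus the mean of the 2 NONT libraries. Circles are replicate 1 and triangles replicate 2, and genes are ordered by their EXOSC5-KO difference. The EXOSC5-KO points lie to the right of both NONT points for 27 genes, and the NUP93-KO points for 22.

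Among the genes of cell cycle arrest, CDKN1A (ENSG00000124762, chr6:36676460-36687337 on the plus strand, 3 exons) encodes p21, the inhibitor of cyclin-dependent kinases through which p53 halts the cycle. Its ERCC-normalized value was 3449 and 4929.5 in NONT and 6997 and 6414 in EXOSC5-KO. All 4 of these values keep the groups apart, and the difference relative to the median gene was 0.63 ± 0.05 (log2 ± SE, n = 2 libraries each, adjusted p = 0.000171, limma). GADD45A (ENSG00000116717, chr1:67685201-67688334 on the plus strand, 4 exons), a small stress protein of arrest and repair, was at 645 and 935 in NONT and at 1278 and 1179 in EXOSC5-KO, a difference of 0.59 ± 0.12 (adjusted p = 0.0205, limma). BTG2 (ENSG00000159388, chr1:203305491-203309602 on the plus strand, 2 exons), an antiproliferative adaptor of mRNA deadenylation, was among the 5 largest differences but did not pass. It read 504 and 761 in NONT and 1076 and 1015 in EXOSC5-KO (0.68 ± 0.41, adjusted p = 0.422, limma), so the groups did not overlap but the SE was wide. PLK3, a stress kinase, was at 208 and 325 in NONT and at 474 and 454 in EXOSC5-KO (0.76 ± 0.26, adjusted p = 0.131, limma). E2F7, a repressor of cell cycle genes, differed by 0.10.

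Among the genes of feedback and regulation, MDM2 (ENSG00000135679, chr12:68808177-68845544 on the plus strand, 11 exons), the ligase that marks p53 for destruction, rose. It was at 904 and 1351 in the NONT libraries, 1252 and 1202 with the NUP93 guide and 1859 and 2152 with the EXOSC5 guide, so the EXOSC5-KO libraries stood above all 4 others. The difference from NONT was 0.78 ± 0.14 (adjusted p = 0.0105, limma). The gene of the phosphatase PPM1D, which dampens p53 signalling (0.29), the cyclin G1 gene CCNG1 (0.28), the RNA-binding protein gene ZMAT3 (0.30), and the kinase gene PLK2 (−0.25) did not pass.

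DNA repair and nucleotide supply gave 2 of the 9 calls. XPC (ENSG00000154767, chr3:14145147-14178621 on the minus strand, 16 exons), the damage sensor of global nucleotide excision repair, was at 518 and 735 in NONT and 1222 and 1113 in EXOSC5-KO, a difference of 0.85 ± 0.18 (adjusted p = 0.0207, limma). RRM2B, the p53-inducible small subunit of ribonucleotide reductase, was at 2338 and 3244 in NONT and 4125 and 4029.8 in EXOSC5-KO (0.50 ± 0.10, adjusted p = 0.0168, limma). DDB2, the partner of XPC in damage recognition and the only gene with a paired half-site in its window, was at 854 and 1786 in NONT and 1593 and 1496 in EXOSC5-KO. Its NONT libraries spanned the EXOSC5-KO values, and the difference of 0.25 ± 0.16 did not pass (adjusted p = 0.452, limma). The translesion polymerase gene POLH differed by 0.20.

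GDF15 (ENSG00000130513, chr19:18374731-18389176 on the plus strand, 2 exons), a secreted stress cytokine, showed the largest difference of the 30 in both knockouts. It was at 69.7 and 98.1 in the NONT libraries, 198 and 214 with the NUP93 guide and 252 and 189.8 with the EXOSC5 guide. Both knockouts stood clear of NONT and overlapped each other, and the differences from NONT were 1.38 ± 0.24 in NUP93-KO (adjusted p = 0.0297, limma) and 1.32 ± 0.24 in EXOSC5-KO (adjusted p = 0.0121, limma). Between the knockouts it differed by −0.06 ± 0.24 (adjusted p = 0.949, limma).

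Among genes of death signalling and receptors, TP53I3, an oxidoreductase that raises reactive oxygen, was at 1149 and 1509.9 in NONT and 1751 and 1799.9 in EXOSC5-KO (0.36 ± 0.08, adjusted p = 0.0336, limma). EDA2R, a receptor of the tumor necrosis factor family, was at 404 and 520.3 in NONT and 760.5 and 692 in EXOSC5-KO (0.59 ± 0.13, adjusted p = 0.0231, limma). SUSD6, a membrane protein, was at 504 and 694 in NONT and 929.8 and 884 in EXOSC5-KO (0.55 ± 0.14, adjusted p = 0.0456, limma). The nuclease gene AEN (0.40), the autophagy and death regulator gene TP53INP1 (0.56), the AKT inhibitor gene PHLDA3 (0.30) and the PIDDosome gene PIDD1 (0.31) did not pass. Neither did the survival gene TRIAP1 (0.45), the sestrins SESN1 (0.54) and SESN2 (0.35), which restrain mTORC1, the ceramidase gene ACER2 (0.45), the hydrolase gene CMBL (0.27) or the ubiquitin ligase gene TRIM22 (0.37). The row of SESN2 was identical in every library to a row whose identifier matched no annotated gene, so the level of SESN2 is uncertain.

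In untreated NUP93-KO cells, 2 of 30 p53 target mRNAs rose relative to the median gene, GDF15 and FDXR, and none fell. Among all genes tested 0.507% rose and 0.434% fell. FDXR (ENSG00000161513, chr17:74862497-74873031 on the minus strand, 12 exons), the mitochondrial ferredoxin reductase, was at 1532 and 2089 in the NONT libraries, 2239 and 2431 with the NUP93 guide and 2351 and 1982 with the EXOSC5 guide, and its difference in NUP93-KO was 0.46 ± 0.09 (adjusted p = 0.0475, limma). The median difference of the 30 was 0.20, against −0.01 for all genes, and 28 of 30 lay above 0, the exceptions being PLK2 (−0.13) and E2F7 (−0.39). Both NUP93-KO libraries exceeded both NONT libraries for 22, against 22.1% of all genes. Neither call remained when any 1 of the 4 libraries was left out or with the replicate number as a block (GDF15 adjusted p = 0.0537 with the block, limma). Most of the rises called among all genes were also lost without any 1 of these libraries. On the ERCC scale 0 of 30 passed, against 0.0145% of all genes by limma. At an unadjusted p below 0.05 (limma) 1 was higher, as were 242 of all 13811 genes. Above 0 lay 23 of 30, against 36.24% of all genes. The libraries did not overlap for GDF15, FDXR, TIGAR, POLH, ACER2 and TRIM22, 6 of 30 against 7.93% of all genes.

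The next largest differences in NUP93-KO did not pass. TIGAR, a regulator of glycolysis, was at 436 and 429.5 in the NONT libraries, 582 and 659 with the NUP93 guide and 709.8 and 751 with the EXOSC5 guide (0.59 ± 0.24 in NUP93-KO, adjusted p = 0.376, limma). ACER2 was at 59.8 and 75.5 in the NONT libraries, 83.2 and 102 with the NUP93 guide and 79.8 and 117 with the EXOSC5 guide (0.53 ± 0.30 in NUP93-KO, adjusted p = 0.621, limma). In all 3 of TIGAR, ACER2 and TRIM22 both NUP93-KO values exceeded both NONT values. TRIM22 was at 403 and 492 in NONT and 547 and 659 in NUP93-KO (0.51 ± 0.11, adjusted p = 0.0815, limma), and POLH at 493 and 678 in NONT and 746 and 792 in NUP93-KO (0.49 ± 0.20, adjusted p = 0.407, limma). CDKN1A in NUP93-KO was at 4317 and 4578, between the NONT values on the ERCC scale and 0.19 ± 0.05 above NONT relative to the median gene (adjusted p = 0.149, limma).

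**Figure D2:**
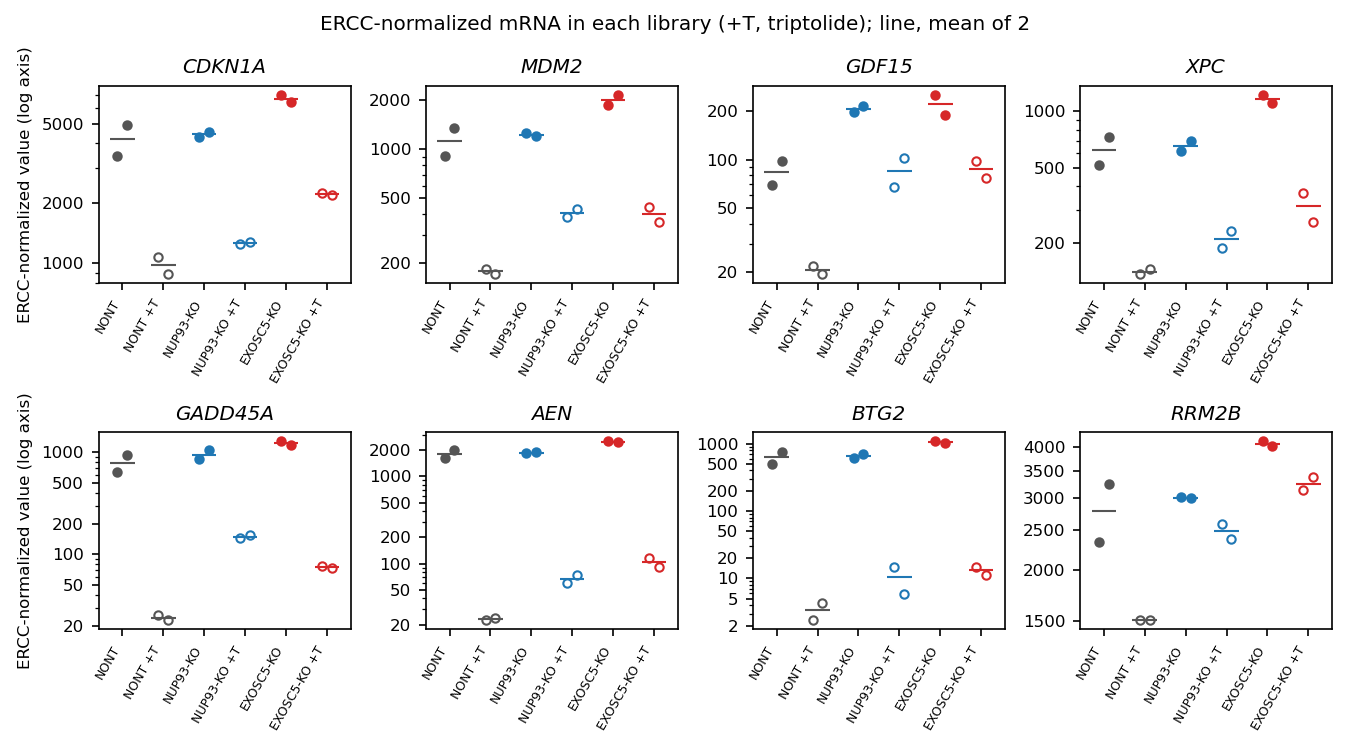
ERCC-normalized values of 8 p53 target mRNAs in each library, on a log axis whose range differs between panels. Filled points are untreated and open points triptolide-treated libraries, and the line is the mean of 2. CDKN1A, MDM2, XPC and RRM2B were highest in both untreated EXOSC5-KO libraries, GDF15 was raised in both knockouts, and BTG2 and AEN fell furthest under the drug.

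The 2 knockouts were compared directly without drug. Relative to the median gene, 2 of 30 p53 target mRNAs were higher in EXOSC5-KO than in NUP93-KO, CDKN1A (0.44 ± 0.05, adjusted p = 0.002, limma) and EDA2R (0.58 ± 0.13, adjusted p = 0.036, limma), against 1.5% of all genes. EDA2R was at 417 and 458 in NUP93-KO, within the range of NONT. With any 1 of the 4 libraries left out, the call of CDKN1A remained and that of EDA2R did not, and most of the higher calls among all genes were lost. Both EXOSC5-KO libraries exceeded both NUP93-KO libraries for 19 genes, against 25.6% of all genes, and 23 of 30 differences lay above 0. On the ERCC scale 0 of 30 passed, against 0.268% of all genes, with adjusted p = 0.347 for CDKN1A and 0.329 for EDA2R (limma). At an unadjusted p below 0.05 (limma) 9 were higher, as were 925 of all 13811 genes. Of the 30, 28 lay above 0, against 69.47% of all genes. Scaled to the mitochondrially encoded mRNAs, 10 of 30 lay above 0, with a median of −0.06 against −0.29 for all genes. None passed by limma, against 0.232% of all genes higher and 1.48% lower. At an unadjusted p below 0.05 (limma) 3 were lower, as were 2944 of all 13811 genes. For XPC (0.69, adjusted p = 0.0677, limma) and MDM2 (0.56, adjusted p = 0.0634, limma) the difference between knockouts did not pass. Differences of the 2 knockouts from NONT share the NONT libraries and are set side by side only.

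Under triptolide every one of the 30 p53 target mRNAs fell per cell in NONT, on the ERCC scale, as did 90.0% of all genes (limma, adjusted p below 0.05). In NUP93-KO 25 fell, against 55.1% of all genes, and in EXOSC5-KO 26, against 64.3%. The median difference of the 30 was −2.19 for the NONT guide, −1.83 for NUP93 and −1.89 for EXOSC5, in log2 units, against −1.62, −0.92 and −1.07 for all genes. Losses ranged from the near disappearance of BTG2 to the retention of most RRM2B and FDXR mRNA.

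The 4 mRNAs with the largest mean loss were BTG2, TP53INP1, SESN2 and AEN. BTG2 fell from 504 and 761 without drug to 2.4 and 4.4 in the NONT libraries, from 609 and 692 without drug to 14.7 and 5.9 with the NUP93 guide and from 1076 and 1015 without drug to 14.8 and 11.4 with the EXOSC5 guide, leaving 0.533%, 1.59% and 1.25% of the untreated mean. The treated NONT values correspond to about 4 and 8.9 reads, so their ratio is imprecise. TP53INP1 fell to 3.6 and 3.9 in the NONT libraries, 5.3 and 5.0 with the NUP93 guide and 13.1 and 15.7 with the EXOSC5 guide, from untreated values between 264 and 508. SESN2 was left at 1.23%, 3.43% and 2.99% for the NONT, NUP93 and EXOSC5 guides, with treated values of 6.6 to 25.9 against 451 to 827 without drug. AEN (ENSG00000181026, chr15:88621337-88632281 on the plus strand, 4 exons), an exonuclease that helps to fragment DNA in apoptosis, went from 1609 and 2016 without drug to 22.4 and 24 in the NONT libraries, from 1821 and 1896 without drug to 59.9 and 73.9 with the NUP93 guide and from 2501 and 2478 without drug to 116 and 92.2 with the EXOSC5 guide. The log2 differences of AEN were −6.22 ± 0.22, −4.78 ± 0.22 and −4.58 ± 0.22 (highest adjusted p = 6.26e-10, limma), and treated and untreated libraries of each genotype were far apart.

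PLK2 (1.32% left in NONT), PHLDA3 (2.77%), GADD45A (3.03%), PPM1D (4.06%), E2F7 (6.24%), SESN1 (7.71%), TRIAP1 (8.83%) and SUSD6 (9.9%) followed. Together with the 4 above, these are the 12 mRNAs whose loss exceeded that of the median gene by at least 1 log2 in all 3 genotypes, which held for 18.7% of all genes. In this group of 12 of the 30 stood AEN, PLK2 and SESN1, 3 of the 5 genes with a half-site in the promoter window shown above. FDXR and DDB2, which also have one, stood outside it, with mean log2 differences over the 3 genotypes of −0.50 and −1.21. Only 25 of the 31 genes had a window, and a link between half-site and loss was not tested. CDKN1A kept 23.5% in the NONT libraries, 28.6% with the NUP93 guide and 33.4% with the EXOSC5 guide, where the treated libraries read 1082 and 886, then 1258 and 1283, then 2265 and 2214. MDM2 kept 15.8%, 33.2% and 20.1%, with treated values of 184 and 172 in the NONT libraries, 383 and 433 with the NUP93 guide and 445 and 360.4 with the EXOSC5 guide. On the ERCC scale the treated knockout libraries lay above the treated NONT libraries for both genes, as did their median gene. Relative to the median gene, CDKN1A responded by −0.42 log2 for the NONT guide, −0.88 for NUP93 and −0.53 for EXOSC5. For MDM2 the responses were −0.97, −0.66 and −1.27 in the same order. The difference in response from NONT passed for neither gene in either knockout, on the ERCC scale or relative to the median gene (limma).

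The 4 mRNAs with the smallest mean loss were RRM2B, FDXR, CMBL and PIDD1. RRM2B went from 2338 and 3244 to 1509 and 1506 in NONT, leaving 54% (−0.87 ± 0.18, adjusted p = 0.000338, limma). In the knockouts it did not pass, with 2596 and 2379 in treated NUP93-KO (82.7% left) and 3140.5 and 3369 in treated EXOSC5-KO (79.8% left). FDXR was left at 1112 and 747 with the NONT guide (51.3%), 1760.4 and 1950.3 with the NUP93 guide (79.5%) and 1869 and 1864 with the EXOSC5 guide (86.2%), and only the NONT difference passed (adjusted p = 0.000477, limma). PIDD1 was left at 114 and 84.3 in the NONT libraries, 208 and 231 with the NUP93 guide and 188 and 203 with the EXOSC5 guide. Without drug PIDD1, which helps to activate caspase signalling, had been at 185 and 268, 266 and 276 and 343 and 246 in the same order. In NONT CMBL went from 391 and 629 to 286 and 236, in NUP93-KO from 588 and 533 to 378 and 397, and in EXOSC5-KO from 734 and 534 to 461 and 468. For PIDD1 and CMBL too only the NONT difference passed. TRIM22 did not pass in NUP93-KO either (adjusted p = 0.0573, limma).

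**Figure D3:**
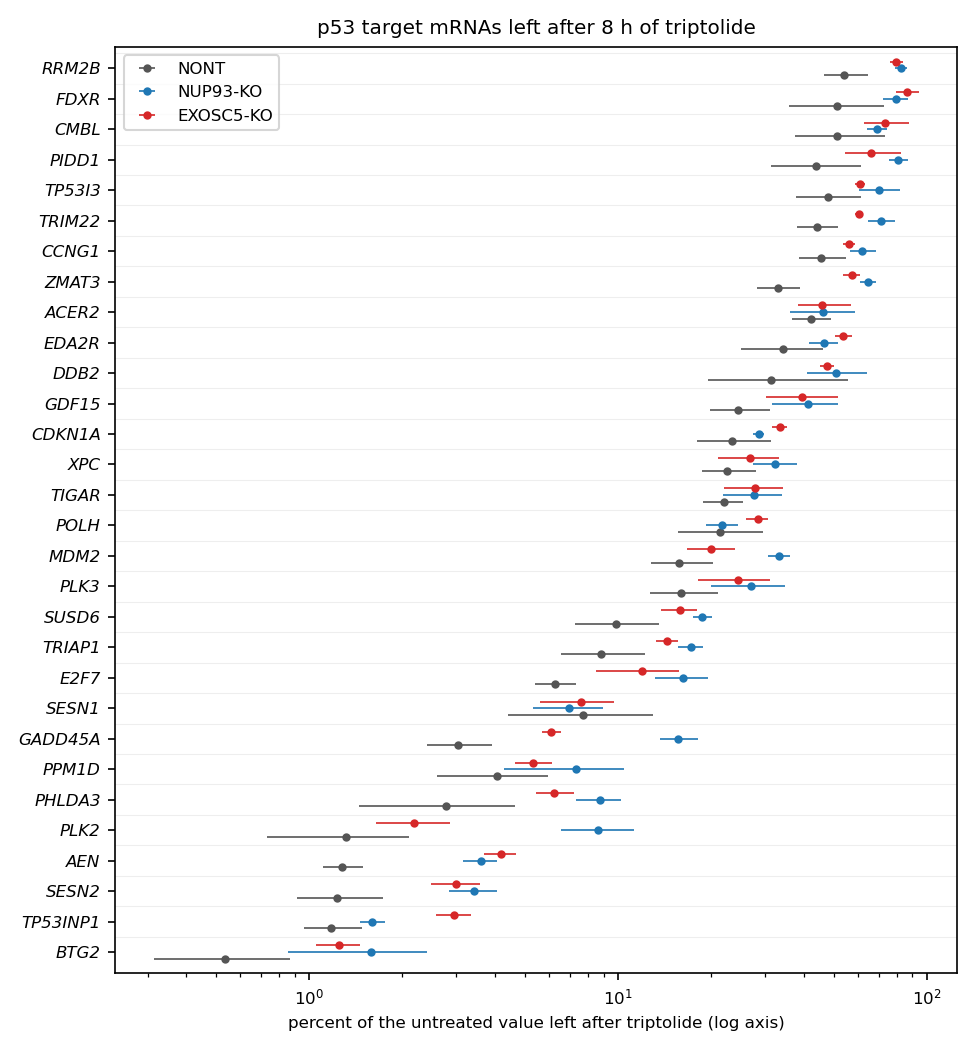
Percent of the untreated mean left after 8 h of triptolide for the 30 tested p53 target mRNAs, on the ERCC scale and a log axis. Points are ratios of the means of 2 libraries, and bars run from the lowest to the highest ratio of any treated to any untreated library of that genotype. BTG2 lies below 2% and RRM2B above 50% in every genotype, and bars of the genotypes overlap for many genes.

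Relative to the median gene, the share of the 30 that fell further was above that of all genes, and the share that fell less was near it. In NONT 17 fell further than the median gene and 7 less, against 29.5% and 27.9% of all genes. In NUP93-KO the counts were 18 and 8, against 29.2% and 27.7%, and in EXOSC5-KO 18 and 8, against 29.3% and 25.4%. TP53I3, FDXR, RRM2B, CCNG1, TRIM22, PIDD1 and CMBL lost less than the median gene in all 3 genotypes, which held for 20.2% of all genes. GDF15 (−0.31, −0.37 and −0.27 relative to the median gene for the NONT, NUP93 and EXOSC5 guides), DDB2, ACER2 and EDA2R did not pass in either direction in any genotype. By role, the 5 genes lost most (BTG2, TP53INP1, SESN2, AEN and PLK2) serve arrest, death, metabolism and kinase signalling, and the 5 lost least (RRM2B, FDXR, CMBL, PIDD1 and TP53I3) serve nucleotide supply, mitochondrial electron transfer, hydrolysis and death signalling, so no single role filled either end.

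Fitted losses per cell were smaller than in NONT for 92.04% of all genes with the NUP93 guide and 89.77% with the EXOSC5 guide, and the test of the difference in response passed for few p53 targets. Against NONT, 3 of 30 lost less in NUP93-KO on the ERCC scale, PLK2, GADD45A and AEN, against 0.76% of all genes, and 1 of 30 lost less in EXOSC5-KO, AEN, against 0.319%. PLK2, a stress-induced kinase, went from 861 and 1159 without drug to 8.5 and 18.2 in the NONT libraries, from 975 and 768 without drug to 86.4 and 63.8 with the NUP93 guide and from 985 and 789 without drug to 22.6 and 16.2 with the EXOSC5 guide. Its treated NUP93-KO values were above all other treated values, and the difference in response was 2.69 ± 0.48 (adjusted p = 0.0271, limma). The treated NONT values of PLK2 correspond to about 14.1 and 37.1 reads, so this difference is imprecise. GADD45A was left at 25.3 and 22.5 in the NONT libraries, 143 and 155 with the NUP93 guide and 76.9 and 72.8 with the EXOSC5 guide, so that 3.03%, 15.7% and 6.09% remained. The difference in response was 2.31 ± 0.35 in NUP93-KO (adjusted p = 0.0124, limma) and 0.95 ± 0.35 in EXOSC5-KO (adjusted p = 0.176, limma). For AEN it was 1.44 ± 0.32 in NUP93-KO (adjusted p = 0.0478, limma) and 1.64 ± 0.32 in EXOSC5-KO (adjusted p = 0.0446, limma).

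Relative to the median gene, whose own fitted loss was smaller in the knockouts, only GADD45A still lost less in NUP93-KO (1.58 ± 0.17, adjusted p = 0.0198, limma), 1 of 30 against 0.0145% of all genes. In EXOSC5-KO 0 of 30 did so, against 0.0507%. There 3 passed in either direction at an unadjusted p below 0.05 (limma), as did 1376 of all 13811 genes. These counts turn on single untreated libraries. On the ERCC scale, without the first untreated NONT library 19 of 30 passed with the NUP93 guide and 14 with the EXOSC5 guide, while 7040 and 5280 of all genes did so. Without the second, no p53 target passed in either by limma, nor did any other gene. Most calls with the NUP93 guide were lost without the first or the second untreated NUP93-KO library. The call with the EXOSC5 guide was lost without either untreated EXOSC5-KO library. In these fits most of the smaller losses called among all genes were lost too. GADD45A in NUP93-KO passed in 6 of 8 fits that each left out 1 library, PLK2 in 5, and AEN in 2 for either knockout.

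The other genes of the pathway were taken from lists named by function, also chosen with earlier results of these data known. Of the genes that act on p53, 16 were tested. Relative to the median gene their median difference in EXOSC5-KO was −0.02, and 8 of 16 lay above 0. Among them HIPK2, a kinase that phosphorylates p53, was higher (0.54 ± 0.13, adjusted p = 0.0438, limma), a rise that 2.37% of all genes showed by the same rule. It was at 529 and 724 in NONT and 924 and 966 in EXOSC5-KO, but did not pass on the ERCC scale (0.61 ± 0.23, adjusted p = 0.413, limma). MDM4, the partner of MDM2, differed by 0.00 ± 0.28. CDKN2A, whose ARF product inhibits MDM2, was listed at 0 in all libraries.

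Of 27 further p53 targets, all tested, 5 rose in EXOSC5-KO relative to the median gene and none fell, against 2.37% and 3.11% of all genes. They were BAX, the pore-forming death effector (0.57 ± 0.12, adjusted p = 0.0255, limma), the death receptor gene TNFRSF10B (0.48), RPS27L (0.35), CES2 (0.60) and CYFIP2 (0.55). BAX was at 1815 and 2507 in the NONT libraries, 1968 and 1965 with the NUP93 guide and 3430.0 and 3225 with the EXOSC5 guide. The death receptor gene FAS differed by 0.26 ± 0.94, an SE larger than the difference. In NUP93-KO 0 of the 27 passed (1 at an unadjusted p below 0.05, limma), against 0.507% of all genes higher. Most of the 5 calls were lost with any 1 of the untreated NONT or EXOSC5-KO libraries left out, as were most of the rises called among all genes. On the ERCC scale none of the 27 rose in EXOSC5-KO, against 0.485% of all genes. At an unadjusted p below 0.05 (limma) 7 were higher there, as were 833 of all 13811 genes. The median of the 27 was 0.18 in EXOSC5-KO and 0.04 in NUP93-KO.

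Of 16 cell cycle genes repressed through p21 and the DREAM complex, 9 fell in EXOSC5-KO and none rose, against 3.11% of all genes lower, and 1 fell in NUP93-KO, against 0.434%. BIRC5, the inhibitor of apoptosis survivin, was at 4377 and 5580.4 in NONT and 3189.6 and 3047 in EXOSC5-KO (−0.74 ± 0.07, adjusted p = 0.000279, limma). The mitotic cyclin gene CCNB1 was at 4001 and 6012 in NONT and 3479.8 and 3635 in EXOSC5-KO (−0.53 ± 0.08, adjusted p = 0.00461, limma). MYBL2, a cell cycle transcription factor, fell in both (−0.67 in EXOSC5-KO and −0.27 in NUP93-KO). The median of the 16 was −0.53 in EXOSC5-KO and −0.17 in NUP93-KO, and with any 1 of the untreated NONT or EXOSC5-KO libraries left out 5 to 8 of 16 fell in EXOSC5-KO, against 1.05% to 1.25% of all genes. On the ERCC scale 0 of 16 passed by limma, against 0.0362% of all genes lower in EXOSC5-KO. At an unadjusted p below 0.05 (limma) 8 were lower in EXOSC5-KO and 0 in NUP93-KO, as were 340 and 338 of all 13811 genes. Whether these changes follow from p53 activity was not tested.

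**Figure D4:**
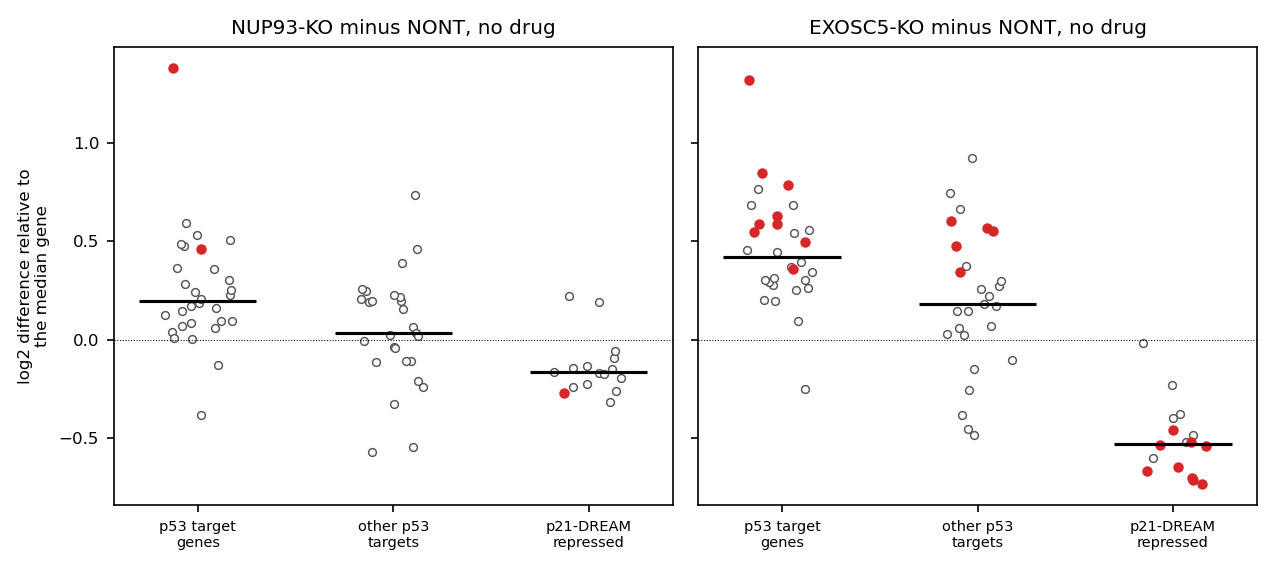
Untreated log2 difference from NONT relative to the median gene in NUP93-KO (left) and EXOSC5-KO (right) for the p53 target genes, 27 other p53 targets and 16 genes repressed through p21 and DREAM. Each point is a gene, filled where the adjusted p was below 0.05, and lines are medians. In EXOSC5-KO 29 of 30 p53 target genes lie above 0 and all 16 repressed genes below 0.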

How the data were processed

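Values were taken for 12 libraries in 6 groups of 2, grouped by their labels. The authors quantified reads with kallisto 0.46.1, summed transcripts to genes in tximport, scaled each library by a DESeq2 size factor from the 92 ERCC transcripts and then kept protein-coding genes by annotation, so the deposited values are a spike-in normalized signal and not counts. An error in cell number or spike-in volume moves a whole library on this scale. Between 11.8% and 23.8% of low values were whole multiples of the approximate worth of 1 read (within 0.01 of a read), so no count model was used, and depths are approximate and cover counting only. Of 22379 gene identifiers, 19584 matched GENCODE 44 (GRCh38). The annotation release the authors used is not given in the sources used here. kallisto divides reads between near-identical genes, which makes such rows uncertain.

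Genes with an untreated mean of at least 10 (13811) were fitted as log2(value + 1), which understates changes of low genes, with limma 3.58.1 in R 4.3.3 (trended variance, 6 group means, all 12 libraries), with Benjamini-Hochberg adjustment over all genes and a threshold of 0.05. Tests were two-sided. Untreated differences used libraries centred on the median gene, and triptolide responses the ERCC scale. Values in every library are given for genes past the threshold in an untreated difference or a difference in response, the 5 largest untreated differences per knockout and the 4 largest and smallest losses. Members and lists were chosen with earlier results of these data known. Alternatives were pseudocounts of 0.5 and 5, no filter or a mean of at least 50, no trend, a replicate block, the 6 untreated libraries alone, other scales and leaving out each library. Replicate numbers did not pair the samples (r between groups −0.051 to 0.037). One gene of the pathway is not reported here.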

Additional observations from a re-analysis of the deposited data

Results flagged for a closer look

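For 3 p53 target mRNAs the response to triptolide differed between a knockout and NONT by the test of that difference (limma, Benjamini-Hochberg adjustment over all genes). On the ERCC scale GADD45A lost less in NUP93-KO by 2.31 log2 (adjusted p = 0.0124, limma), PLK2 by 2.69 (adjusted p = 0.0271, limma) and AEN by 1.44 (adjusted p = 0.0478, limma), and AEN lost less in EXOSC5-KO by 1.64 (adjusted p = 0.0446, limma). Relative to the median gene, GADD45A lost less in NUP93-KO by 1.58 (adjusted p = 0.0198, limma). The untreated NONT libraries differed from each other by more than those of the knockouts, and their part in these differences was not tested beyond the counts without each library given in the report. Groups of 2 libraries are too small for a search for outlying samples.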

How the results depend on the processing

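Counts of p53 target mRNAs past the threshold (limma) depended on the settings, and counts of all genes moved with scale and with libraries left out. Rises in EXOSC5-KO covered 2.37% of all genes relative to the median gene, 0.485% on the ERCC scale and 0.55% with the same mitochondrially encoded sum. In NUP93-KO the shares were 0.507%, 0.0145% and 0.0724% in that order. The counts below therefore describe the settings and are not particular to the p53 targets. The 9 rises in EXOSC5-KO were 4 without the variance trend, and 0 on the ERCC scale or with the same mitochondrially encoded sum, and 1 to 2 without 1 library. The 2 rises in NUP93-KO were 1 with a pseudocount of 5, with no filter or in the 6 untreated libraries alone, and 0 without trend, with the replicate block, on the ERCC scale, with the same mitochondrially encoded sum or without any 1 library. The 2 differences between knockouts were 1 without trend, 4 in the 6 untreated libraries alone, 0 on the ERCC or mitochondrial scale, and 1 without any 1 library. The 30 losses in NONT were 17 relative to the median gene. The 3 smaller losses in NUP93-KO were 1 with no filter, relative to the median gene or with the same total, 7 at a mean of at least 50, 0 without trend or on the mitochondrial scale, and 0 to 19 without 1 library. The 1 in EXOSC5-KO was 0 with a pseudocount of 5, with no filter, without trend, with the replicate block and on each other scale, and 0 to 14 without 1 library. The replicate block left 8, 2 and 2 calls for EXOSC5-KO, EXOSC5-KO against NUP93-KO and the smaller losses in NUP93-KO.

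The median of members minus that of all genes under triptolide was −0.57, −0.92 and −0.81 for the NONT, NUP93 and EXOSC5 guides. With no filter it was −0.84, −1.09 and −0.9996, and without 1 library −0.82 to −0.51, −1.05 to −0.79 and −0.87 to −0.71. The NONT responses of PIDD1, CMBL, FDXR and RRM2B turned positive relative to the median gene (0.48, 0.73, 0.68 and 0.78) and with the same total (0.15, 0.41, 0.37 and 0.47). Of 458 alternatives for single genes, 328 kept direction and call, 122 kept direction and lost the call, and 8 reversed. The cause of these changes was not tested. With 2 libraries per group, leaving out 1 assumes that the lone library varies like the other groups. Low reads limit the treated values of BTG2, TP53INP1 and SESN2, and those of PLK2 in NONT and EXOSC5-KO.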
